A study of Homo sapiens with 4 samples.

Results

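Pairs of m5C peaks, one from each replicate, that overlapped and began or ended on exactly the same base were examined in PANC-1 cells, an established line from a human pancreatic carcinoma. A pair was taken when its peaks lay on the same chromosome and strand, overlapped by 1 bp or more, and had the same start or the same end in the deposited lists. There were 227 such pairs among the 435 overlapping pairs, a share of 52.2% (95% Wilson interval 47.5 to 56.8), and the other 208 overlapping pairs shared no edge. The lists held 3177 peaks in replicate 1 and 5742 in replicate 2, so the edge-sharing pairs took in 7.15% and 3.95% of them. The pairs were chosen from the positions of the peaks, and every value below comes from the same lists, so the values are a description and no test is given. Wilson intervals cover counting error only.

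All cells of the series had been exposed beforehand to extracellular vesicles (Evs) from cancer-associated fibroblasts (CAFs), the activated stromal cells of a tumour. From them 2 immunoprecipitated and 2 input libraries were made of total RNA, as 2 replicates, and each replicate had 1 peak list. No group without vesicles is in the labels, so what the vesicles changed was not compared. Whether the replicates were separate cultures is not stated in the labels, and the differences between them may be technical. The lists hold no read counts, so the depth behind a peak is unknown. They hold no gene names either, so regions are given by chromosome, strand and 1-based hg19 position. No hg19 genome or annotation was used here, so the genes, exon borders and sequence at the edges were not analysed here.

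5-Methylcytosine (m5C) is cytosine with an added methyl group. In RNA it is written by enzymes of the NSUN family and by the tRNA methyltransferase TRDMT1, and in messenger RNA it can be bound by the export adaptor ALYREF and the RNA-binding protein YBX1. In m5C MeRIP-seq, RNA is fragmented, fragments caught by an antibody to m5C are sequenced together with input RNA that skipped the antibody step, and a peak marks a stretch with more reads in the caught RNA than in the input. Such a peak is usually wider than the methylated base, and its edges do not say where the base lies. Whether the deposited edges are those first called is unknown, as any trimming of peaks was not given in the sources used here.

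The distances between the edges of overlapping peaks were concentrated on 0. The 5′ edges, read along the strand of the peak, fell on the same base in 135 of the 435 pairs, and the 3′ edges in 128. The next distance held far fewer: 5′ edges were 1 bp apart in 8 pairs and 3′ edges in 5. Distances of 2 bp were found in 5 and 6 pairs, and all distances from 1 to 10 bp together in 33 pairs at each edge. Of the 208 pairs that shared no edge, 5 missed the rule by 1 bp and 27 had an edge 1 to 10 bp apart. Other kinds of equal edge were counted as well. No replicate 1 end coincided with a replicate 2 start on the same strand (0 pairs), no peaks on opposite strands overlapped or had the same start or end (0 pairs), and neither list repeated a start or an end within itself (0 peaks). Same-strand peaks of a list lay at least 200 bp apart, so equal edges among them were not possible. Without overlap on opposite strands, equal starts or ends there were not possible either. The zeros on opposite strands and within a list therefore give no background level for the shared edges. The 0 for a replicate 1 end at a replicate 2 start was not fixed in this way, but it sets an end against a start and not like edges.

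**Figure D1:**
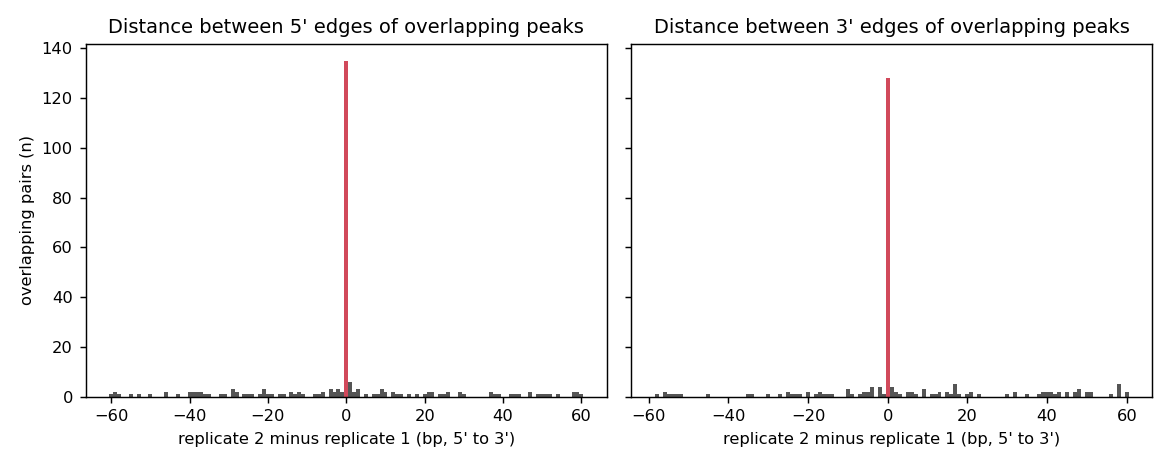
Number of overlapping pairs (y axis) at each distance in bp between the 5′ edges (left) and the 3′ edges (right), replicate 2 minus replicate 1 along the strand, within 60 bp. The red bar at 0 holds 135 pairs for 5′ edges and 128 for 3′ edges, while 1 bp in either direction holds 8 and 5.

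Of the 227 edge-sharing pairs, 36 were identical at both edges, 99 shared only the 5′ edge and 92 only the 3′ edge. Among the 191 pairs with 1 shared edge, the 5′ edge was the shared one in 51.8% (44.8 to 58.8). The share was 54.3% (44.2 to 64.0) on the plus strand, with 51 of 94 pairs, and 49.5% (39.7 to 59.3) on the minus strand, with 48 of 97. Read by genome position, the start was shared in 100 of the 191 pairs. These intervals include an even split, so over all pairs a preference for the 5′ or the 3′ edge was not detectable at this number. Restricting each list to scores no lower than its own median, which was 3100 in replicate 1, left 64 edge-sharing pairs. The 5′ edge was then the shared one in 36 of the 55 with 1 shared edge (65.5%, 52.3 to 76.6). That interval leaves out an even split, but it belongs to 1 of 10 alternatives and the share was not tested. Restricting replicate 2 to as many top-scoring peaks as replicate 1 holds left 124 edge-sharing pairs. With that filter the 5′ edge was the shared one in 55 of 108 (50.9%, 41.6 to 60.2). The plus strand held 48.0% (41.6 to 54.5) of edge-sharing pairs and 54.3% (47.5 to 61.0) of pairs sharing no edge.

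A pair with 1 shared edge has by construction a shorter peak nested in a longer one. The replicate 2 peak was the longer in 115 of the 191 pairs (60.2%, 53.1 to 66.9), and among pairs of unequal width that shared no edge it was the wider in 61.2% (54.4 to 67.6). With the 5′ edge shared, replicate 2 reached further 3′ in 62 pairs and replicate 1 in 37. With the 3′ edge shared, replicate 2 reached further 5′ in 53 pairs and replicate 1 in 39. The free edges lay a median of 56 bp apart (interquartile range 16.5 to 98.5), from 1 to 1311 bp. They were within 10 bp in 38 pairs and more than 200 bp apart in 20. The pairs that shared no edge were mostly staggered, with 148 of 208 extending past each other at opposite ends. The replicate 1 peak lay inside the replicate 2 peak in 48 of them, and the reverse held in 12.

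Edge-sharing peaks were narrower than those of pairs sharing no edge, and had widths closer to those of the whole lists. In replicate 1 they had a median width of 145 bp (interquartile range 78.5 to 207), against 268 bp (201.75 to 350.75) in pairs sharing no edge and 167 bp in the whole list. In replicate 2 the medians were 156 bp (95 to 239.5), 299.5 bp (229.5 to 493.75) and 141 bp, so there the edge-sharing peaks were wider than the list. Peaks under 50 bp made up 15.0% of the replicate 1 peaks of edge-sharing pairs, 1.44% of those in pairs sharing no edge and 13.1% of the whole list. In replicate 2 these shares were 7.93%, 0.962% and 15.6%. It was the pairs sharing no edge that held few short peaks in both lists, and not the edge-sharing pairs that held more than their list in both. The shared stretch covered a median of 75% of the wider peak in edge-sharing pairs and 38.2% in the others. Widths follow from the same edges as the rule and are given as a description.

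The share of pairs with a common edge changed around a width of 200 bp, a value chosen after the widths were seen. It was the most frequent width of both lists: 194 replicate 1 peaks measured exactly 200 bp, beside 4 of 199 bp and 43 of 201 bp. In replicate 2 the numbers were 108, 20 and 29. When both peaks of a pair were under 200 bp, 132 of 146 pairs shared an edge (90.4%, 84.5 to 94.2). When 1 of them was, 40 of 69 did (58.0%, 46.2 to 68.9), and when neither was, 55 of 220 did (25%, 19.7 to 31.1). The order held on each strand: with both peaks under 200 bp the share was 90.3% on the plus and 90.5% on the minus strand, with 1 it was 44.1% and 71.4%, and with neither it was 25% on each. Peaks of exactly 200 bp shared an edge in 1 of 21 overlapping pairs in replicate 1 and in 3 of 10 in replicate 2. In steps of the wider peak, 93.0% of pairs up to 99 bp shared an edge, 89.3% from 100 to 199 bp, 52.9% from 200 to 299 bp, 26.4% from 300 to 399 bp and 17.0% from 400 bp upward.

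**Figure D2:**
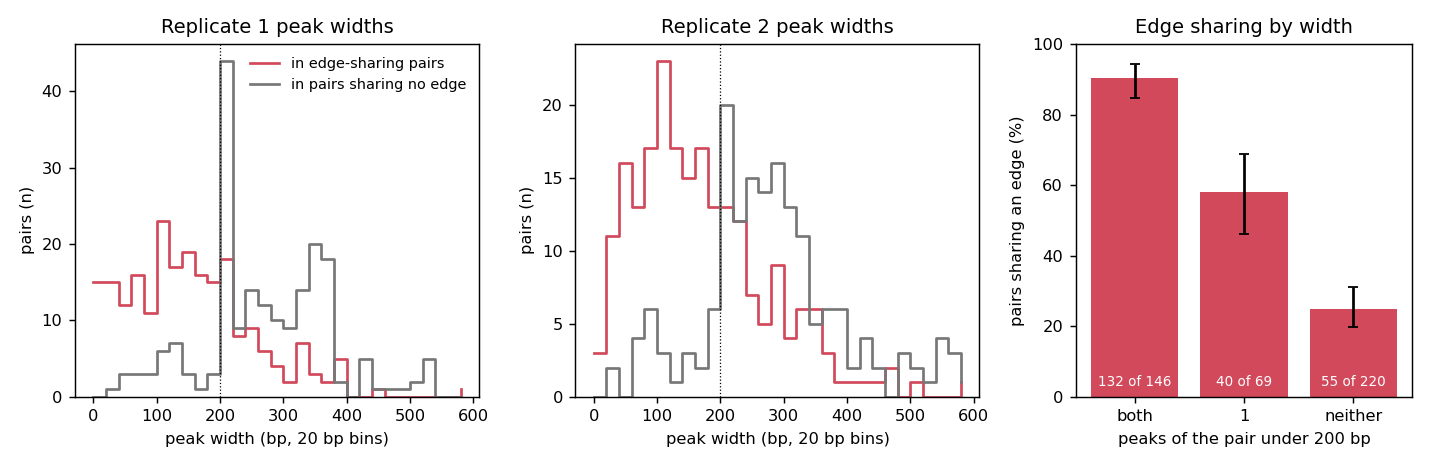
Left and middle: number of pairs (y axis) by width in bp of the replicate 1 and the replicate 2 peak, in 20 bp bins up to 599 bp, for edge-sharing pairs (red) and pairs sharing no edge (grey), with a dotted line at 200 bp. Right: percent of overlapping pairs that share an edge by how many of the 2 peaks are under 200 bp, with 95% Wilson intervals, falling from 90.4% through 58.0% to 25%.

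Peaks under 200 bp were not rare outside the pairs. They made up 56.1% of replicate 1 and 62.5% of replicate 2. In replicate 1, 10.6% (9.26 to 12.1) of them overlapped a replicate 2 peak and 8.92% shared an edge with it. Of the replicate 1 peaks of 200 bp or more, 17.4% (15.5 to 19.5) overlapped and 4.87% shared an edge. In replicate 2 the values were 4.80% and 4.04% under 200 bp, and 12.0% and 3.81% at 200 bp or more.

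Most of the 36 identical pairs fell in 1 range of width. They ranged from 34 to 338 bp with a median of 146 bp, and 27 of them (75%, 58.9 to 86.2) measured 100 to 199 bp, a range that held 26.3% of each whole list. Among all 227 edge-sharing pairs, the identical ones included, the wider peak was in this range in 92. The identical pairs lay on 19 of the 24 chromosomes, with 6 on chromosome 1 and 4 on chromosome 22, and 21 were on the minus strand. In replicate 1, 21 of the 36 scored 3100 or more. This value, in the authors' score of unstated scale, is the most frequent score of that list. In replicate 2 the median score was 231, with 14 of 36 at or above that list's median of 281. The shortest identical peak was 34 bp long, on chromosome 1 (plus strand, 43159161 to 43159194), scoring 697 in replicate 1 and 1244 in replicate 2. The longest was 338 bp long, on chromosome 19 (minus strand, 40771918 to 40772255), with scores of 3100 and 136.

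The identical pairs with the highest mean log2 score all lay on the minus strand and all scored 3100 in replicate 1. The first was chromosome 15 from 45493180 to 45493373, 194 bp long, where replicate 2 scored 3100 as well. It was followed by chromosome 15 from 32747690 to 32747835, 146 bp long, with a replicate 2 score of 842. On chromosome 1 the peak from 6387359 to 6387473 (115 bp) scored 620 in replicate 2, and the peak from 180382501 to 180382606 (106 bp) scored 530. The remaining 2 were chromosome 11 from 74563034 to 74563127, 94 bp long with a replicate 2 score of 604, and chromosome 5 from 78260239 to 78260429, 191 bp long with a score of 521. As replicate 1 gave all 6 the same score, their order is that of replicate 2.

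Of the pairs sharing only the 5′ edge, 4 scored 3100 in both lists. They included 2 very short pairs on the plus strand of chromosome 6, which began at 31962729 and 31995467 with a width of 18 bp in replicate 1 and of 24 bp in replicate 2. On the plus strand of chromosome 19 a pair began at 1383707 and ended at 1383795 in replicate 1 and 5 bp further on in replicate 2. The fourth, on the minus strand of chromosome 11, had its 5′ edge at 10530723 in both lists and ran for 598 bp in replicate 1 and 1290 bp in replicate 2. Its 692 bp of extra length was the largest difference among pairs with a common 5′ edge. Next was chromosome 5, plus strand, where both peaks began at 149212219 and measured 227 bp (score 3100) and 851 bp (score 844). The longest peaks with a common 5′ edge began at 22544947 on the plus strand of chromosome 16, with 1165 bp and a score of 888 in replicate 1 and 1654 bp and a score of 3100 in replicate 2. In all of these the replicate 2 peak was the longer. The reverse held on the plus strand of chromosome 19 from 35801450, where the replicate 1 peak measured 97 bp with a score of 3100 and the replicate 2 peak 18 bp with a score of 1305.

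Pairs sharing only the 3′ edge included the widest edge-sharing pair, on the plus strand of chromosome 8, where both peaks ended at 86749570 after 1727 bp in replicate 1 and 2028 bp in replicate 2, each with a score of 3100. The replicate 2 peak was also the longer on the plus strand of chromosome 19 ending at 39936605, with 125 bp and a score of 2623 in replicate 1 and 322 bp and a score of 3100 in replicate 2. On the minus strand of chromosome 1, where the 3′ edge is the genomic start at 45285516, the peaks measured 254 and 332 bp and scored 3100 and 2208. Replicate 1 was the longer on the minus strand of chromosome 8 from 144911450, with 107 bp against 58 bp and scores of 2032 and 3100. It was also the longer on the minus strand of chromosome 11 from 62314132, with 201 bp against 172 bp and scores of 971 and 3100. On the plus strand of chromosome 16 the peaks ended at 204095, differed by 3 bp at the other end and scored 3100 and 999.75. The free edges were farthest apart on the minus strand of chromosome X from 153219517, where the replicate 1 peak measured 166 bp (score 769) and the replicate 2 peak 1477 bp (score 274). The next largest gap, 693 bp, was on the plus strand of chromosome 19 ending at 38819649, with scores of 3100 and 304.

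Some edge-sharing peaks were only a few bases long. The shortest was a single base in replicate 1, at 42946007 on chromosome 6 (minus strand), with a score of 3100. The replicate 2 peak there began at the same position, measured 257 bp and scored 357. A replicate 1 peak of 4 bp at 35478511 on chromosome 22 (plus strand) scored 3100 and had a replicate 2 partner of 52 bp with a score of 815. The shortest replicate 2 peak of a pair measured 11 bp, from 9085159 on the plus strand of chromosome 12, inside a replicate 1 peak of 63 bp. Where the narrower peak was under 50 bp, 45 of 50 overlapping pairs shared an edge (90.0%, 78.6 to 95.7).

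**Figure D3:**
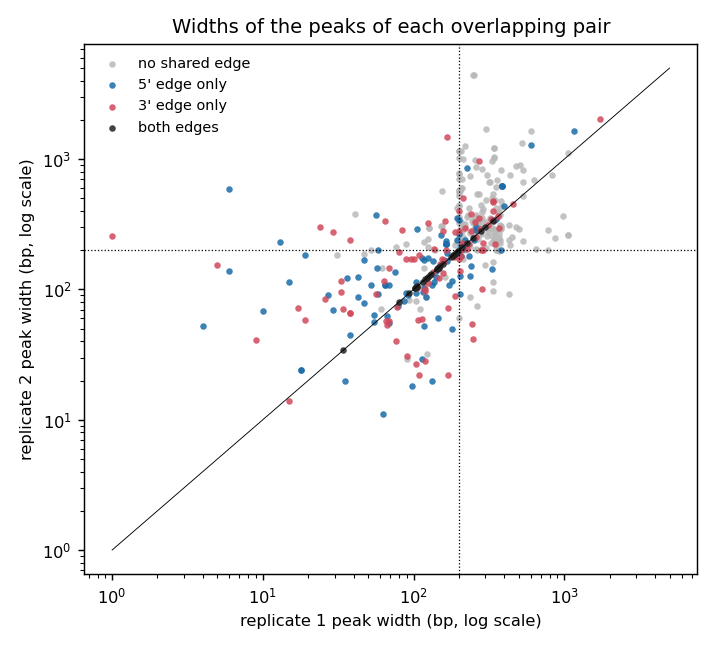
Width in bp of the replicate 1 peak (x axis, log scale) and the replicate 2 peak (y axis, log scale) of each of the 435 overlapping pairs, coloured by shared edge, with equal widths on the diagonal and dotted lines at 200 bp. The 36 pairs sharing both edges lie on the diagonal between 34 and 338 bp, and the pairs sharing no edge lie mostly above 200 bp in both lists.

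Scores were not scaled between the lists and were compared within each list only. In replicate 1, 52.0% (45.5 to 58.4) of edge-sharing peaks scored 3100 or more, against 55.3% (48.5 to 61.9) in pairs sharing no edge and 52.1% of the whole list. Within the edge-sharing pairs this share was 60.6% (50.8 to 69.7) where only the 5′ edge was shared and 40.2% (30.8 to 50.4) where only the 3′ edge was. The 5′ value was the higher on both strands, at 62.7% against 39.5% on the plus strand and 58.3% against 40.8% on the minus strand. It was also the higher at each width, with 63.8% against 50% for both peaks under 200 bp, 61.9% against 31.6% for 1 peak and 50% against 31.0% for neither. The difference was not tested, and it was noticed after the values were seen. The filter to scores no lower than each median selects on the same replicate 1 scores, so its 5′ share is not a separate observation.

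In replicate 2 the median score was 275 in edge-sharing pairs (interquartile range 125 to 613), 401 in pairs sharing no edge (176 to 917) and 281 in the whole list. Scores at or above the list median were held by 49.3% (42.9 to 55.8) of edge-sharing and 61.5% (54.8 to 67.9) of the other pairs. The difference was not alike at all widths. With neither peak under 200 bp the replicate 2 medians were 401 in 55 edge-sharing pairs and 393 in 165 others, with 1 they were 274 in 40 and 410 in 29, and with both they were 264 in 132 and 319 in 14. The part of width in the difference was not tested. In the whole replicate 2 list the median score was 275 under 200 bp, 310 from 200 to 299 bp and 265 from 300 bp upward, so it did not rise steadily with width. Of the 16 overlapping pairs with a replicate 2 score of 3100 or more, 12 shared an edge (75%, 50.5 to 89.8). That interval includes the 52.2% of all overlapping pairs. All 6 pairs with such a score in both lists shared an edge, and 2 of these were the short chromosome 6 pairs of equal widths. Spearman's rho between the scores of the 2 replicates was 0.10 over the 227 edge-sharing pairs and -0.05 over the 208 others, as a description across pairs of the same libraries. Between the widths rho was 0.60 over the 191 pairs with 1 shared edge, where a common edge and nesting tie the widths together, and 0.25 over the pairs sharing no edge.

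Edge-sharing pairs were found on all 24 chromosomes, and outnumbered the others on 13. Chromosome 1 held 24 (10.6% of them), chromosome 19 held 21 (9.25%) and chromosome 17 held 18 (7.93%). These shares lay near the chromosomes' shares of all peaks, which in replicates 1 and 2 were 10.2% and 10.5% for chromosome 1, 8.88% and 7.91% for chromosome 19 and 6.96% and 5.80% for chromosome 17. Chromosome 19 had the most overlapping pairs, 55, but only 38.2% of them (26.5 to 51.4) shared an edge. It held 16.3% of the pairs sharing no edge, above its share of either list. Of its 55 overlapping pairs, 9 lay in a single cluster described below, and 3 of these 9 shared an edge. The pairs of chromosome 19 were also wide, with a median of 321 bp for the wider peak against 267 bp over all pairs. With both peaks under 200 bp, 8 of its 12 pairs shared an edge, and with neither, 9 of 33. Chromosome X had 12 edge-sharing pairs of 16 (75%, 50.5 to 89.8), 8 of them at the 3′ edge only. Its median for the wider peak was 230 bp. The only overlapping pair of chromosome Y shared an edge. It had the same widths and the same distance between free edges as 1 pair of chromosome X, so it may not be a separate observation. Chromosomes 15 and 22, with 9 of 13 and 8 of 13, had narrow pairs, with medians of 175 and 137 bp for the wider peak. Chromosome 3 had 7 of 10 with a median of 260.5 bp, so a high share was not limited to chromosomes with narrow pairs. On most chromosomes the numbers are too small to tell shares apart, and no chromosome was tested.

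**Figure D4:**
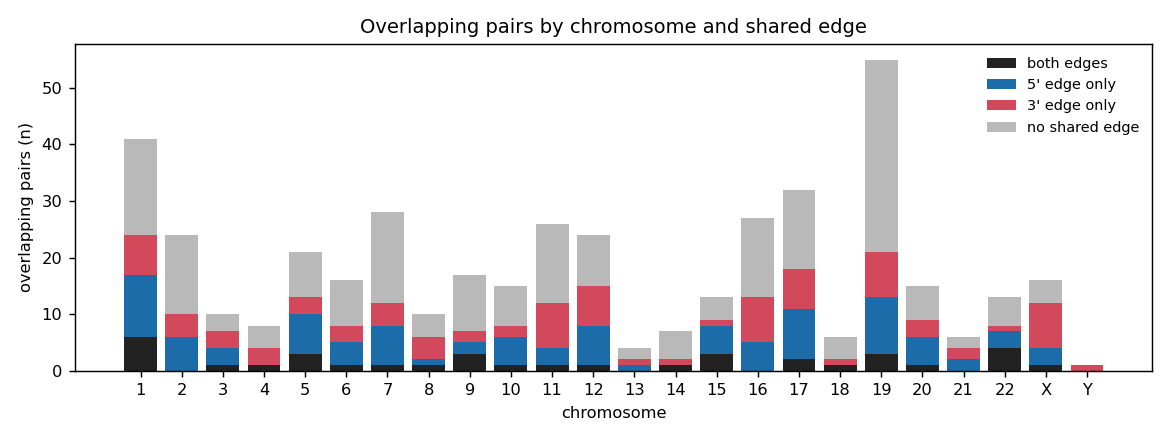
Number of overlapping pairs (y axis) on each chromosome (x axis), split into pairs sharing both edges, the 5′ edge only, the 3′ edge only or no edge. Chromosome 19 has the most pairs, 55, with 34 sharing no edge, whereas chromosome X has 12 of 16 pairs with a common edge.

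Linking same-strand peaks of both lists over gaps of up to 10 kb placed the edge-sharing pairs in 221 clusters, of which 161 held nothing but the pair itself. Of the 188 clusters with a pair sharing no edge, 122 held that pair alone, so both kinds of pair mostly stood by themselves. No edge-sharing peak overlapped more than 1 peak of the other list (0 pairs), whereas 15 of the pairs sharing no edge included such a peak. Same-strand peaks of a list lay at least 200 bp apart. An edge-sharing pair could thus include such a peak only with free edges more than 200 bp apart, as in 20 of the 191 pairs with 1 shared edge. The rule itself therefore left little room for such peaks. Only 5 clusters held more than 1 edge-sharing pair. In 4 of them there were 2, and all overlapping pairs of the cluster shared an edge. On the minus strand of chromosome 21 both lay within 7.73 kb, with a common 5′ edge at 33980026 and a common 3′ edge at 33982148. On the minus strand of chromosome 7 a common 3′ edge at 5540119 lay in a cluster of 5.14 kb with a common 5′ edge at 5545261. The cluster on the plus strand of chromosome 12, 1.88 kb long, had a common 3′ edge at 9083523 and a common 5′ edge at 9085159. On the plus strand of chromosome 1 the identical 34 bp peaks were followed within 3.46 kb by peaks of 261 and 303 bp that both began at 43162313.

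The only cluster with 3 edge-sharing pairs was on chromosome 19 (minus strand, 40367298 to 40433430), with 13 replicate 1 and 14 replicate 2 peaks. All 3 shared the 5′ edge, at 40367914, 40384167 and 40399855. The replicate 2 peaks all measured 617 bp, and the replicate 1 peaks measured 387, 389 and 387 bp. Their replicate 1 scores were 1805, 3100 and 154, and their replicate 2 scores were 778, 826 and 498, so equal geometry did not go with equal scores. The other 6 overlapping pairs of the cluster shared no edge. One of these, from 40398189 to 40398451 in replicate 1 with a score of 3100, lay inside a replicate 2 peak of 544 bp with a score of 2458 and was among the highest-scoring pairs without a common edge. The others of that kind with the highest scores were on the minus strand of chromosome 5, where a replicate 1 peak of 343 bp from 79946257 lay inside a replicate 2 peak of 1037 bp, and on the plus strand of chromosome 11, where peaks of 828 and 757 bp from 1092653 and 1092784 overlapped over 697 bp.

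**Figure D5:**
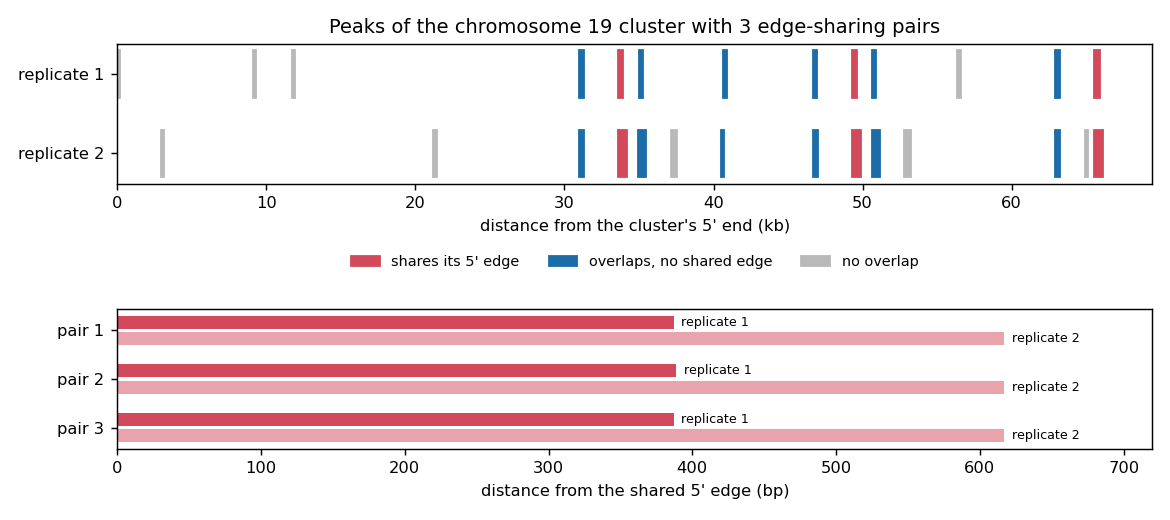
Top: peaks of both replicates along the chromosome 19 cluster, by distance in kb from its 5′ end, coloured by whether they share their 5′ edge with the other replicate (red), overlap without a common edge (blue) or do not overlap (grey). Bottom: the 3 edge-sharing pairs aligned on their common 5′ edge, with replicate 1 peaks of 387 to 389 bp and replicate 2 peaks of 617 bp.

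The same arrangement, with equal widths in each replicate and an equal distance between the free edges, recurred in 5 sets of pairs with 1 shared edge, 12 pairs in all. In each of the 12 the replicate 2 peak was the longer, and 10 shared the 5′ edge. Pairs of 1 set have the same longer peak and the same shared edge by construction, so the 12 stand for only 5 arrangements. The largest set had 4 pairs on chromosome 17, each with 165 bp in replicate 1 and 223 bp in replicate 2 from the same 5′ edge. Their 5′ edges were at 34493943, 34798054 and 36338594 on the minus strand and at 36294032 on the plus strand. In the order of these positions their replicate 1 scores were 3100, 14.4, 3100 and 3100, and their replicate 2 scores 592, 3100, 1187 and 1421. The others were the 2 short pairs on chromosome 6 and 2 of the pairs in the chromosome 19 cluster, both described above, 2 pairs on chromosome 15 beginning at 72953800 and 75557658 (65 and 108 bp), and 1 pair each on X and Y ending at 155127913 and 59230919 (38 and 66 bp). Among the pairs sharing no edge there were 3 such sets with 6 pairs. Counting each set once left 220 edge-sharing pairs of 425.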

How the data were processed

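The 2 peak lists, 1 per replicate, were deposited by the authors with 6 columns and no header. Per the submitters' processing notes, cutadapt 1.9.3 and the hg19 build were used. The peak names begin with MACS, a peak caller. The aligner, caller version, thresholds, any limit to messenger RNA and any trimming of peaks, each of which would move edges, were not given in the sources used here. The authors deposited 1 score for each peak, with no scale stated. The other columns used are the deposited positions in bp, read as 0-based starts and printed 1-based.

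Pairs were found in Python 3.11.15 (pandas 2.3.3, numpy 2.4.6, statsmodels 0.14.6, matplotlib 3.10.9), and their number equalled that of bedtools 2.31.1. The edge classes were tested on simulated data. Named are the 6 pairs of each class with the highest mean log2 score, the 2 with the largest width difference in each class with 1 shared edge, the 3 widest overlaps, clusters with 3 or more pairs, and 3 pairs sharing no edge. Other named pairs were chosen after their values were seen. The members, lists and rules were chosen with earlier results of these data known. Alternatives tried were the edge tolerance, minimum overlap, minimum width, score filter, list length, clusters and strand. No deposited column was left unmatched.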

Additional observations from a re-analysis of the deposited data

How the results depend on the processing

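The number of edge-sharing pairs and 6 shares were recomputed under 10 alternatives, 2 of which (leaving out the cluster with most peaks, and counting recurring arrangements once) were chosen after seeing the data. The share with a wider replicate 2 peak was here taken over all 227 edge-sharing pairs, identical ones included (50.7%, 44.2 to 57.1). The 60.2% given above for the 191 pairs with 1 shared edge was not recomputed. Of the 70 values, 61 stayed within the interval of the main share or within 1.5 times the count. These 61 include the 7 values with strand ignored, which could not change because no peaks on opposite strands overlapped. With each list restricted to scores no lower than its own median there were 64 edge-sharing pairs, the 5′ edge was the shared one in 65.5% of pairs with 1 shared edge, and the shares at 3100 or more in replicate 1 and at or above the median in replicate 2 were 100% by construction. With lists of equal length there were 124 edge-sharing pairs, 47.3% of those overlapping, and 90.3% were at or above the replicate 2 median, which that filter also favours. Fewer peaks enter both filters. The share of overlapping pairs with a common edge was 68.7% with a reciprocal overlap of 50% and 47.3% with peaks of 50 bp or more. Allowing edges within 5 bp gave 245 pairs. No replicate could be left out, since a pair needs both lists. No paired analysis was possible because each replicate has 1 list and no groups are compared. Depth is unknown and limits every share.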

Other observations

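Within each list, peaks of the same strand kept a distance: the smallest gap was 200 bp in replicate 1 and 202 bp in replicate 2. Between the lists, non-overlapping peaks of the same strand came as close as 10 bp in 2 pairs, 50 bp in 8 and 100 bp in 12. Among pairs without a common edge, edges 1 to 10 bp apart were found in 2 of 14 pairs with both peaks under 200 bp, in 5 of 29 with 1 and in 20 of 165 with neither.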
